A study of Mus musculus with 13 samples.

Results

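Genes of dystroglycan glycosylation, 6 in number, were followed across the tibialis anterior, a muscle of the lower leg, of WT, mdx and mdxTG mice. They are Pomt1, Pomt2, Pomgnt1, Pomk, B4gat1 and Gmppb, chosen by name, and all 6 of 6 were found among the 13846 genes listed in the authors' expression sheet and passed the filter on low values. RNA-seq libraries were made from 5 WT, 4 mdx and 4 mdxTG muscles. The mdx mouse lacks dystrophin through a mutation in Dmd and is the mouse model of Duchenne muscular dystrophy. The mdxTG mice carry the same mdx mutation and also express sarcospan (SSPN), a membrane protein associated with dystrophin, from a transgene. The sources used here state neither age, sex nor strain, nor the promoter and species of the transgene. Whether separate animals gave the libraries is not stated either, so all p-values describe variation among these libraries, part of which may be technical.

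Dystroglycan spans the muscle fibre membrane and links dystrophin inside the cell to laminin and other matrix proteins outside it. Its outer subunit binds laminin only through matriglycan, a sugar chain that is built stepwise on a mannose attached to serine or threonine, first in the endoplasmic reticulum and then in the Golgi. In humans, mutations in each of these genes cause muscular dystrophies with poorly glycosylated dystroglycan. Pomt1 and Pomt2 encode the partner subunits of the enzyme that attaches the mannose. Pomgnt1 extends that mannose with N-acetylglucosamine, on a branch other than the one that carries matriglycan. Pomk phosphorylates the mannose on the matriglycan branch, and B4gat1 adds the glucuronic acid from which matriglycan is extended. Gmppb makes GDP-mannose, the sugar donor from which the mannose ultimately comes.

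In GENCODE M21, an annotation of GRCm38 (mm10), the genes lie on 6 chromosomes. Pomt1 spans chr2:32236590-32255005 on the plus strand, Pomt2 chr12:87106861-87147968 on the minus strand and Pomgnt1 chr4:116123840-116159849 on the plus strand. Pomk spans chr8:25980604-25994133 on the minus strand, B4gat1 chr19:5038826-5041131 on the plus strand and Gmppb chr9:108049242-108052801 on the plus strand. These coordinates cover whole genes, and the values below are sums over their exons as the authors counted them.

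Upstream sequence is shown for Pomt1 and Pomt2, because their products act as a pair and their ratio is tested below. The RefSeq table of GRCm38.p6 held promoter windows for 4 of the 6 genes, and each stretch printed is the part of the 250 bases upstream of the RefSeq start in which GENCODE M21 annotates no exon. The Pomt1 stretch is chr2:32236390-32236589 on the plus strand, and the Pomt2 stretch is chr12:87147969-87148152 on the minus strand. Capitals mark matches to 5 motifs searched on both strands, the TATA box (TATAAA), the CCAAT box (CCAAT), the GC box (GGGCGG), an ETS site (CCGGAAG) and an E-box (CACGTG), none of which contains another.
Pomt1: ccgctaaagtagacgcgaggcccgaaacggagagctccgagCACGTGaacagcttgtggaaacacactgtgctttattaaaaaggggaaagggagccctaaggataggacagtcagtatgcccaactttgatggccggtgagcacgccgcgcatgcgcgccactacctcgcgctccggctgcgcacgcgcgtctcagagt
Pomt2: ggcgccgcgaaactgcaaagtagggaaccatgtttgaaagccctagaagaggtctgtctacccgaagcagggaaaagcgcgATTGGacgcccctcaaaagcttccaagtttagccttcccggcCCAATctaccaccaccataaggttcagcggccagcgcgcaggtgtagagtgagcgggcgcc
The Pomt1 stretch held 1 CACGTG, a motif present in 6.04% of the 32536 windows of 250 bases in the table. The Pomt2 stretch held 2 CCAAT matches, 1 on each strand, a motif present in 33.8% of the windows. Both stretches are shorter than the windows behind these percentages. Over their full 250 bases the Pomt1 window had 60% GC and the Pomt2 window 62.4%, against a median of 52.4% over all windows. The full Pomt2 window also held 1 GC box, a motif present in 33.0% of the windows. Neither stretch shared a motif with the other, and such a match is only a description of the letters.

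Libraries held 53.26 to 68.44 M reads, of which 41.74 to 53.87 M fell in listed genes. The authors' normalized CPM (counts per M reads after a scaling factor for each library) is the level used throughout. A count of 3 reads was worth 0.0504 to 0.0818 normalized CPM. Behind the 6 genes were 130 to 403 reads per library for Gmppb, the lowest, and 1942 to 3341 for Pomgnt1, the highest; the counting error alone was 4.98 to 8.77% for Gmppb and 1.73 to 2.27% for Pomgnt1. The labels were matched by their targets: Dmd in mdx was at 0.245 of the WT level, and Sspn in mdxTG was 15.1-fold higher than in mdx. All 10 markers of skeletal muscle fibres were detected in every library. Fold changes are differences of mean log2(normalized CPM + 0.5), given ± SE, and a gene rose or fell where limma's p, adjusted by Benjamini-Hochberg over the 13831 genes tested, was under 0.05.

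The 6 genes were expressed in every library, and of their order, compared per kilobase of exon, only the place of Gmppb changed between groups. Exon length here is that of all exons of a gene in GENCODE M21, overlapping ones counted once, and the order depends on it. In WT muscle B4gat1 stood at 10.7 ± 0.767 normalized CPM per kb and Pomgnt1 at 9.97 ± 0.351 (mean ± SD, n = 5), and the ranges of these neighbours overlapped. Pomk followed at 3.14 ± 0.113, Pomt1 at 2.14 ± 0.179, Pomt2 at 1.56 ± 0.205 and Gmppb at 1.39 ± 0.160 normalized CPM per kb in WT. Only the last of these steps, from Pomt2 to Gmppb, was within overlapping ranges.
Gmppb had rank 6 in WT, rank 5 in mdx at 1.70 ± 0.0870 and rank 4 in mdxTG at 2.24 ± 0.303 normalized CPM per kb (n = 4 each). Its range overlapped that of Pomt2 in mdx and that of Pomt1, at 2.15 ± 0.145, in mdxTG. The other 5 kept their order per kb in all 3 groups. Without division by length, Gmppb was lowest in all 3 groups, at means of 3.87, 4.74 and 6.24 normalized CPM in WT, mdx and mdxTG. The Pomk mean was then below those of Pomt1 and Pomt2 in WT and mdx. In mdxTG it was above both, at 15.4 against 13.8 and 14.3, with overlapping ranges. The places of B4gat1 and Gmppb each carry a limit of annotation, given with their mdxTG values below. Dag1, which encodes dystroglycan itself, was far above them, so that per kb B4gat1 reached 26.2% of the Dag1 level in WT and Gmppb 3.42%.

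**Figure D1:**
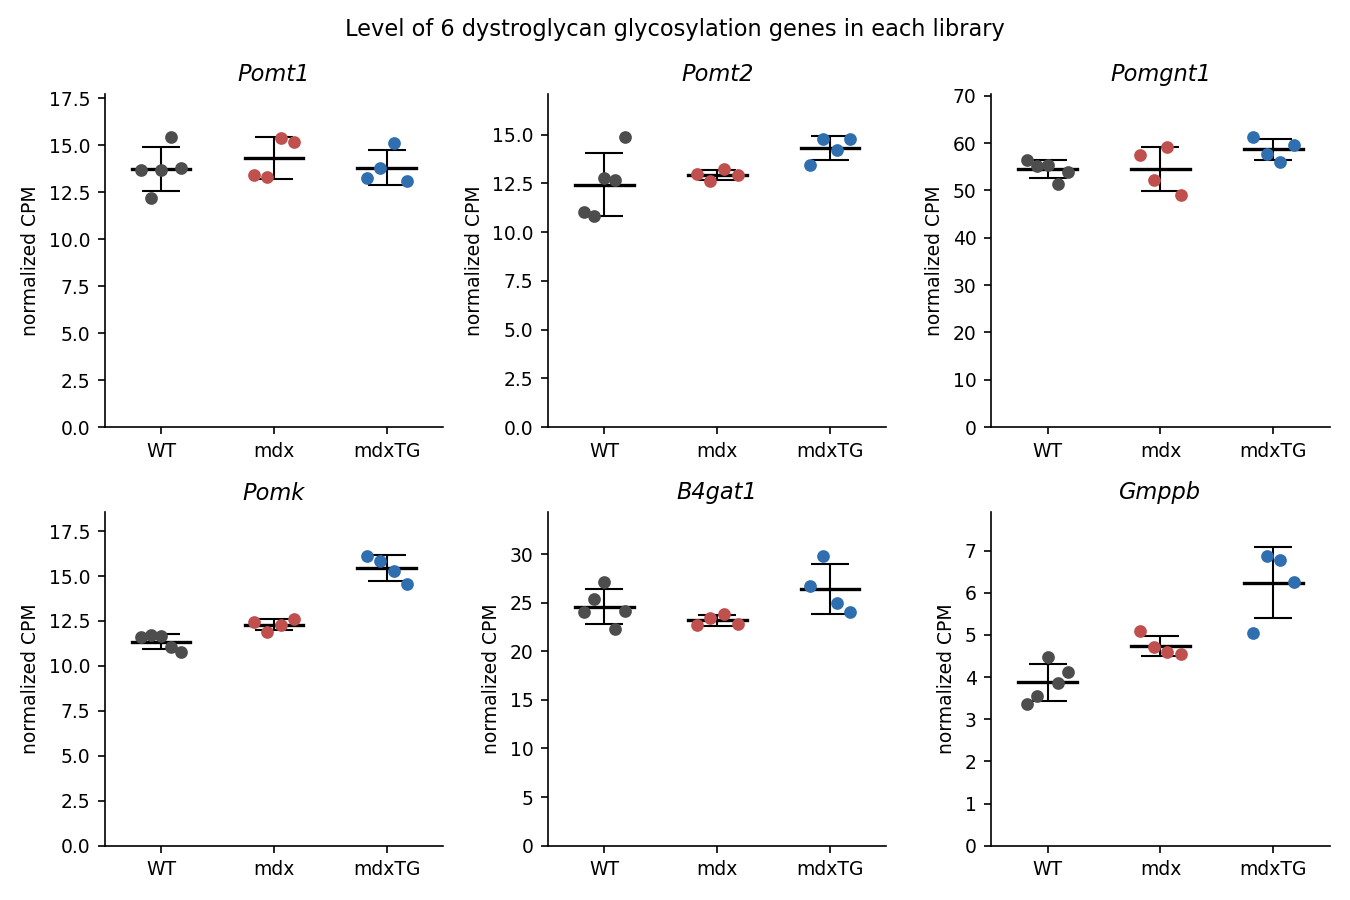
Normalized CPM (vertical axes, from 0) of the 6 genes in each library, 1 point per library, in 5 WT, 4 mdx and 4 mdxTG libraries; thick lines are means and bars ± 1 SD. Pomk in mdxTG lies between 14.5 and 16.1, above all WT and mdx libraries, and Gmppb is highest in mdxTG.

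The first question was whether loss of dystrophin in mdx muscle goes with a different level of these transcripts. None of the 6 genes passed the threshold in mdx against WT, where 18.5% of all genes rose and 16.1% fell. With edgeR and with DESeq2 on the recovered reads the count was also 0, where 4813 and 5273 of all genes changed. Gmppb alone had an unadjusted limma p under 0.05, at 0.0246, and the share of all genes under that level was not counted. The median log2 fold change of the 6 was 0.06, against -0.01 over all genes tested. All 6 differences lay between -0.08 and 0.27 on the log2 scale.

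The mannosyltransferase subunits were close to their WT levels in mdx. Pomt1 was at 13.7, 12.2, 13.7, 15.4 and 13.8 normalized CPM in WT replicates 1 to 5 and at 13.4, 13.3, 15.4 and 15.2 in mdx replicates 1 to 4. Pomt2 was at 11.01, 10.9, 12.8, 12.7 and 14.9 normalized CPM in WT and at 12.96, 12.6, 13.2 and 12.9 in mdx. The groups overlapped for both genes. The log2 fold change was 0.06 for Pomt1 (95% interval -0.12 to 0.23, limma adjusted p = 0.622) and 0.06 for Pomt2 (95% interval -0.13 to 0.25).
Pomt2 was the more variable in WT, with WT replicates 1 and 2 lowest and WT replicate 5 highest. Among mdx libraries its levels were within 12.6 to 13.2, and its coefficient of variation there was lower than that of all but 0.904% of the genes tested. At 2.02%, that spread is below the counting error of Pomt2, which was 3.44 to 5.01% over all libraries. The narrow mdx range therefore cannot show steady expression.

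Pomgnt1, the N-acetylglucosaminyltransferase, had means of 54.5 ± 1.92 normalized CPM in WT (n = 5) and 54.5 ± 4.67 in mdx (n = 4). Its log2 fold change in mdx against WT was -0.00 (95% interval -0.15 to 0.14), the narrowest limits but for Pomk, and the mdx libraries spanned the whole WT range. B4gat1, the glucuronyltransferase, was at 24.6 ± 1.77 in WT and 23.2 ± 0.548 in mdx, with a log2 fold change of -0.08 (95% interval -0.25 to 0.08) and overlapping groups.

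Pomk and Gmppb were the genes whose mdx and WT libraries did not overlap, 2 of 6 where 26.7% of all genes showed no overlap. Pomk was at 11.6, 11.7, 11.7, 11.1 and 10.8 normalized CPM in WT and at 12.5, 11.9, 12.3 and 12.6 in mdx. Every mdx library was above every WT library, by a small margin. Its log2 fold change was 0.11 ± 0.06 (95% interval -0.03 to 0.25, limma adjusted p = 0.2). Gmppb was at 3.36, 3.54, 4.47, 3.87 and 4.12 in WT and at 5.08, 4.72, 4.60 and 4.55 in mdx. All mdx libraries were again above the WT libraries. The difference of 0.27 ± 0.11 (limma adjusted p = 0.0655) missed the threshold, and it passed without WT replicate 3, the highest WT library, at 0.31 (limma adjusted p = 0.0398).

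The second question was whether these transcripts differ when the sarcospan transgene is added to mdx muscle. Pomk and Gmppb rose in mdxTG against mdx, 2 of 6, where 15.4% of all genes rose, and none of the 6 fell, where 12.9% of all genes fell. Pomk rose by 24.5% and Gmppb by 27.9%. The median log2 fold change of the 6 genes was 0.16, against -0.00 over all genes tested. Groups did not overlap for Pomk, B4gat1 and Pomt2, 3 of 6, where 33% of all genes showed no overlap.

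Pomk, the kinase of the matriglycan branch, was at 16.1, 15.8, 15.3 and 14.5 normalized CPM in mdxTG replicates 1 to 4. The lowest of these was above the highest mdx library, at 12.6. Means were 15.4 ± 0.702 in mdxTG and 12.3 ± 0.316 in mdx (SD, n = 4 each). The log2 fold change was 0.32 ± 0.07 (95% interval 0.17 to 0.46, limma adjusted p = 0.00285), and it passed the threshold under all 18 alternatives run for it, with adjusted p between 7.94e-05 and 0.0181.

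Gmppb, the GDP-mannose pyrophosphorylase subunit, was at 5.04, 6.88, 6.77 and 6.25 normalized CPM in mdxTG. mdxTG replicate 1 lay just under the highest mdx library, at 5.08, and the other 3 lay above all mdx libraries. The log2 fold change was 0.35 ± 0.11 (95% interval 0.12 to 0.59, limma adjusted p = 0.0275). The call was lost when any single library among mdx replicates 2, 3 and 4 or mdxTG replicates 2, 3 and 4 was left out. The adjusted limma p-values were then 0.0553, 0.0611, 0.0636, 0.0861, 0.0792 and 0.0614, and the log2 fold changes stayed between 0.31 and 0.35.
Gmppb is also uncertain by annotation, since 33.6% of its exon bases overlap exons of Rnf123 on the other strand. The library kit keeps strand, but how the counting treated strand is not stated in the sources used here, so reads of these genes may have been divided either way. Rnf123 was at 126 normalized CPM in mdx and 131 in mdxTG, with a log2 fold change of 0.07 (limma adjusted p = 0.679).

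B4gat1 was at 26.7, 29.9, 25.01 and 24.0 normalized CPM in mdxTG and at 22.7, 23.4, 23.8 and 22.8 in mdx. The groups did not overlap, although the gap between them was narrow and mdxTG replicate 2 stood above the rest. The log2 fold change was 0.18 (95% interval 0.01 to 0.35, limma adjusted p = 0.115). In GENCODE M21, 85.3% of the B4gat1 exon bases are shared with AC124502.3, a gene model on the same strand that has no row in the sheet, so reads could have been divided between them.

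Pomt2 was at 13.5, 14.8, 14.2 and 14.8 normalized CPM in mdxTG, all above the mdx libraries, with a log2 fold change of 0.14 (95% interval -0.06 to 0.34, limma adjusted p = 0.291). Pomt1 was at 13.2, 13.8, 15.1 and 13.1 in mdxTG and overlapped mdx, with a log2 fold change of -0.05 (95% interval -0.24 to 0.14). Pomgnt1 was at 61.3, 57.8, 56.1 and 59.7 in mdxTG and also overlapped mdx, with a log2 fold change of 0.11 (95% interval -0.04 to 0.26). These intervals leave room for changes of either sign in all 3 genes.

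In mdxTG against WT, which compares dystrophin-deficient muscle carrying the transgene with normal muscle, Pomk and Gmppb rose and none fell. That is 2 of 6 where 28.7% of all genes rose and 25.3% fell. These were also the 2 of 6 genes whose groups did not overlap, where 43.2% of all genes showed no overlap. Pomk rose 1.34-fold, by 0.43 ± 0.06 on the log2 scale (limma adjusted p = 6.39e-05). Gmppb rose 1.54-fold, by 0.62 ± 0.11 (limma adjusted p = 0.000199), and both passed under all 20 alternatives. The comparison shares its libraries with the other comparisons, so it is no separate evidence for them.

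The remaining 4 genes did not pass in mdxTG against WT. Pomt2 came nearest, at 0.20 (95% interval 0.01 to 0.39, limma adjusted p = 0.0649). Without WT replicate 5, the WT library with the highest Pomt2 level, it passed at 0.27 (limma adjusted p = 0.0113). Without both WT replicates 1 and 2, its lowest libraries, it was at 0.09 (limma adjusted p = 0.341). That removal was chosen after seeing the data and can only lower the difference. Without either of these 2 alone, Pomt2 was at 0.16 and did not pass. Its value therefore depends on which WT libraries are kept. Pomgnt1 stood at 0.11, B4gat1 at 0.10 and Pomt1 at 0.01 on the log2 scale.

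**Figure D2:**
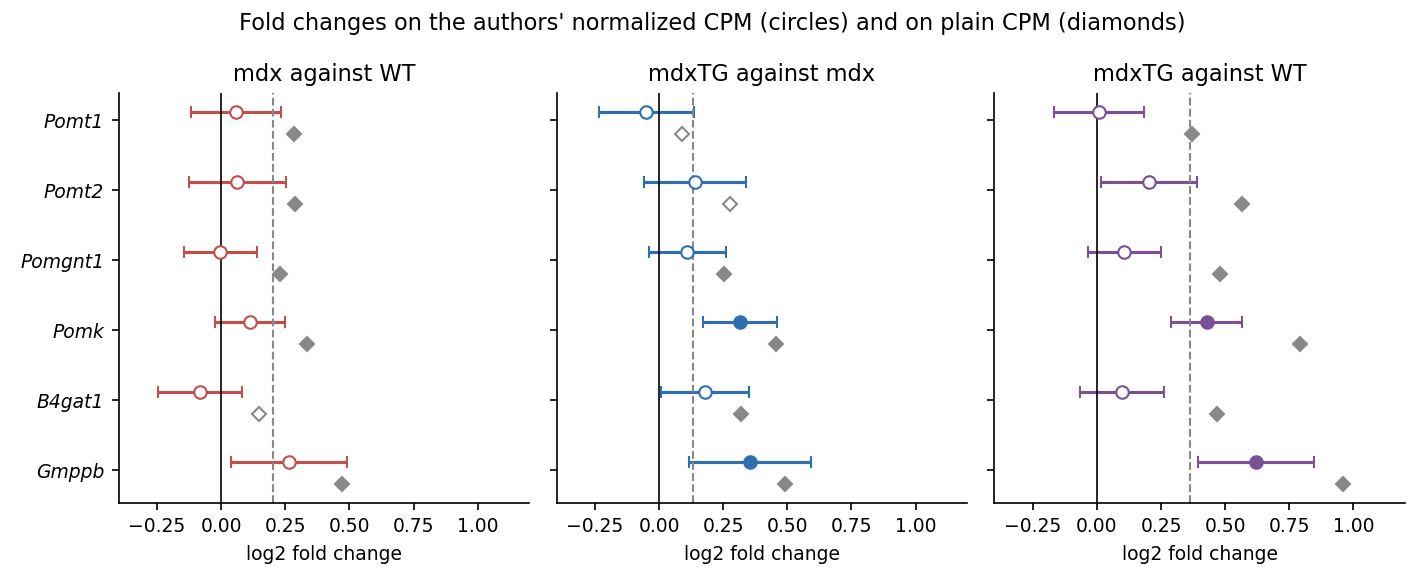
Log2 fold change (horizontal axes) of the 6 genes in the 3 comparisons; circles with 95% intervals are on the authors' normalized CPM and diamonds on plain CPM, filled where the limma adjusted p is under 0.05, and the dashed line is the median of all genes in plain CPM. Pomk and Gmppb have the filled circles in both comparisons with mdxTG. Every diamond lies to the right of its circle, which the order of the scaling factors between groups fixes.

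How many of the 6 genes pass depends on the authors' scaling, while Pomk and Gmppb rose in both comparisons with mdxTG in plain CPM too. The WT libraries had factors of 0.831 to 0.932, the mdx libraries 1.006 to 1.068 and the mdxTG libraries 1.107 to 1.191, without overlap between groups. With factors in that order, plain CPM moves genes upward in each comparison, so a rise that holds there is no separate support. In plain CPM the median log2 fold change of all genes moved to 0.20 in mdx against WT, 0.13 in mdxTG against mdx and 0.36 in mdxTG against WT. The members that rose were then 5, 4 and 6 of 6, where 37.3%, 25.3% and 57.2% of all genes rose, and none of the 6 fell, where 5.32%, 7.09% and 8.54% of all genes fell. The share of all calls that were higher went from 53.5 to 87.5%, from 54.4 to 78.1% and from 53.1 to 87.0%. Measured from the median of all genes, Pomk in mdxTG against mdx was at 0.32 on both scales and Gmppb at 0.36 on both. That match follows from the scaling, which shifts all genes of a library by nearly the same amount, and tests nothing.

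Markers of some cell types moved with the groups, and not all marker lists examined are given here. In bulk RNA, fewer cells of a type and less RNA per cell cannot be told apart. The summed level of the 10 fibre markers ranged from 142436 to 202710 normalized CPM among WT libraries, from 112235 to 144484 among mdx libraries and from 90576 to 109238 among mdxTG libraries. Singly the fibre markers went both ways, with 2 of 10 risen and 2 fallen in mdxTG against mdx, where 15.4% of all genes rose and 12.9% fell. The summed level of 8 fibroblast markers was 1058 to 2666, 2372 to 4003 and 3511 to 5274 in the same order, and 2 of the 8 rose in mdxTG against mdx. The 8 markers of satellite cells and regenerating fibres summed to between 37.1 and 107 in WT, between 222 and 569 in mdx and between 145 and 184 in mdxTG, and 5 of the 8 fell in mdxTG against mdx. The 8 macrophage markers summed to 78.6 to 248, 484 to 868 and 456 to 604, and in mdxTG against mdx 1 of the 8 rose and 3 fell. None of these markers was at 0 in any library. Like Pomk and Gmppb, the fibroblast sum had its highest mean in mdxTG. So did the sum of 5 tenocyte markers, at a mean of 793 in mdxTG against 532 in WT and 502 in mdx, with overlapping ranges. The part of either cell type in the levels of Pomk and Gmppb was not tested.

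Since Pomt1 and Pomt2 act as a pair, the ratio of their transcripts was also compared, which does not depend on the scaling between libraries. The log2 ratio of Pomt1 to Pomt2 was 0.30, 0.16, 0.10, 0.27 and -0.10 in WT, 0.05, 0.08, 0.21 and 0.23 in mdx, and -0.02, -0.09, 0.09 and -0.17 in mdxTG. It was below 0 in 3 of 4 mdxTG libraries, in 1 of 5 WT libraries and in none of the 4 mdx libraries, and the groups overlapped. The means of 0.15 ± 0.16 in WT and 0.14 ± 0.09 in mdx differed by -0.00 (exact permutation p = 0.968, two-sided). The mdxTG mean of -0.05 ± 0.11 was 0.19 below mdx (exact permutation p = 0.0857) and 0.19 below WT (exact permutation p = 0.0873), both 0.131 after adjustment over the 3 comparisons. The smallest p these exact tests allow is 0.0286 for 4 against 4 libraries and 0.0079 for 5 against 4. Leaving out single libraries moved the difference from mdx between -0.24 without mdxTG replicate 3 (exact permutation p = 0.0286) and -0.15 without mdxTG replicate 4 (exact permutation p = 0.171). It moved the difference from WT between -0.26 without WT replicate 5 (exact permutation p = 0.0286) and -0.15 without mdxTG replicate 4 (exact permutation p = 0.214). The libraries whose removal took p under 0.05, mdxTG replicate 3 and WT replicate 5, are the highest of mdxTG and the lowest of WT.

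**Figure D3:**
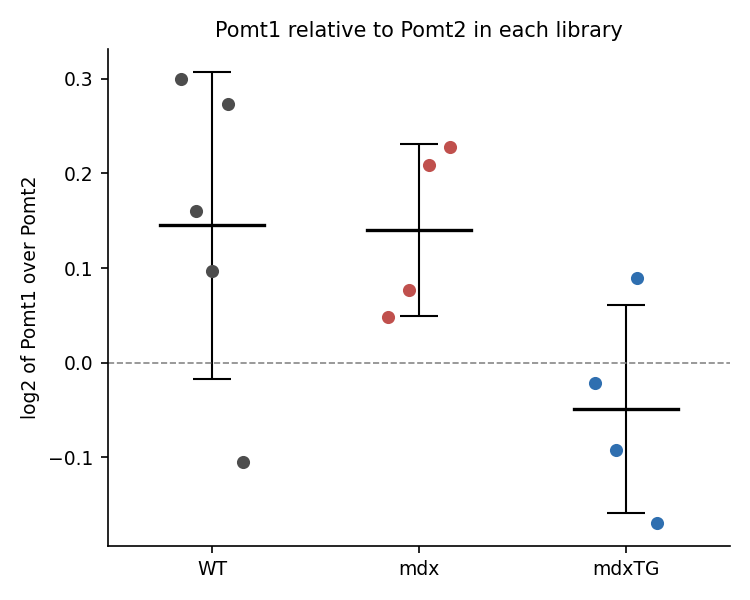
Log2 ratio of Pomt1 to Pomt2 (vertical axis) in each of the 5 WT, 4 mdx and 4 mdxTG libraries, 1 point per library; thick lines are means, bars ± 1 SD and the dashed line marks equal levels. The mdxTG mean is -0.05 and the WT and mdx means are 0.15 and 0.14, with overlapping points.

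The other O-mannosyl and matriglycan genes reported here did not rise in any comparison on the authors' scale. They are described with 5 of the genes above, 8 in all. In mdx against WT none of the 8 rose and 2 fell, where 18.5% of all genes rose and 16.1% fell. Tmem5 (now Rxylt1), the xylosyltransferase of the branch, fell by 0.51 ± 0.08 on the log2 scale (limma adjusted p = 0.000266). Pomgnt2, which starts the matriglycan branch, fell by 0.45 ± 0.11 (limma adjusted p = 0.00517). In plain CPM Tmem5 still fell, by 0.28, whereas Pomgnt2 at -0.23 did not pass. The median log2 fold change of the 8 was -0.04, against -0.01 over all genes.

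In mdxTG against mdx, 1 of the 8 rose, Pomk, and none fell, where 15.4% of all genes rose and 12.9% fell. The median log2 fold change was 0.12 against -0.00 over all genes. Pomgnt2 was at 0.29 without passing (limma adjusted p = 0.0755), and in plain CPM it passed at 0.43 (limma adjusted p = 0.0196). Tmem5 at 0.04 and B3galnt2, the N-acetylgalactosaminyltransferase of the branch, at -0.28 passed on neither scale.
In mdxTG against WT, where 28.7% of all genes rose and 25.3% fell, Pomk rose and 2 of the 8 fell on the authors' scale. These were Tmem5, by 0.47, and B3galnt2, by 0.55. In plain CPM these genes were at -0.10 and -0.18 and neither passed. B3galnt2 was named after its value was seen.

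Gmppb belongs to the supply of mannose donors, a list of 13 genes that were all listed. In mdx against WT, 1 of the 13 rose and 1 fell, where 18.5% of all genes rose and 16.1% fell. Srd5a3, which acts in making dolichol from its precursor, rose by 0.61 ± 0.12 (limma adjusted p = 0.00179), and Dhdds, which builds that precursor, fell by 0.30 ± 0.07 (limma adjusted p = 0.00288), although in plain CPM Dhdds was at -0.07 and did not pass.
In mdxTG against mdx, 5 of the 13 rose and 1 fell, where 15.4% of all genes rose and 12.9% fell. The median log2 fold change was 0.14 against -0.00 over all genes. Pmm1, a phosphomannomutase that makes the substrate of Gmppb, was at 15.6 ± 1.71 normalized CPM in mdx and 31.9 ± 2.63 in mdxTG, and rose by 1.01 ± 0.13 (limma adjusted p = 5.86e-05). In the authors' deposited table of that comparison Pmm1 has a log2 fold change of 1.03; none of the 6 genes is in the authors' deposited tables, which hold only changes above 1 on the log2 scale. Dhdds rose by 0.32 ± 0.07. Dpm1, the catalytic subunit of dolichol phosphate mannose synthase, which turns GDP-mannose into the donor used by Pomt1 and Pomt2, fell by 0.47 ± 0.13 (limma adjusted p = 0.0131), and in plain CPM it was at -0.35 and just missed the threshold (limma adjusted p = 0.0509).
The other 3 that rose were Gmppb, its partner subunit Gmppa by 0.26 ± 0.08 and the phosphomannomutase Pmm2 by 0.24 ± 0.07. Gmppa and Pmm2 were named after their values were seen. Gmppa did not pass without mdx replicate 4 (limma adjusted p = 0.0631), mdxTG replicate 1 (0.0561) or mdxTG replicate 3 (0.05003). Pmm2 did not pass without mdx replicate 1 (limma adjusted p = 0.0523), mdx replicate 2 (0.0707), mdxTG replicate 1 (0.0598) or mdxTG replicate 2 (0.0619).
In mdxTG against WT, Pmm1 by 1.00 ± 0.13, Srd5a3 by 0.82 ± 0.12 and Gmppb rose, 3 of 13, where 28.7% of all genes rose and 25.3% fell. Dpm1 and Mpi, the latter making mannose phosphate from fructose phosphate, fell on the authors' scale, by 0.55 and 0.26, and in plain CPM they were at -0.21 and 0.11 and did not pass. Those were also named after their values were seen.

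**Figure D4:**
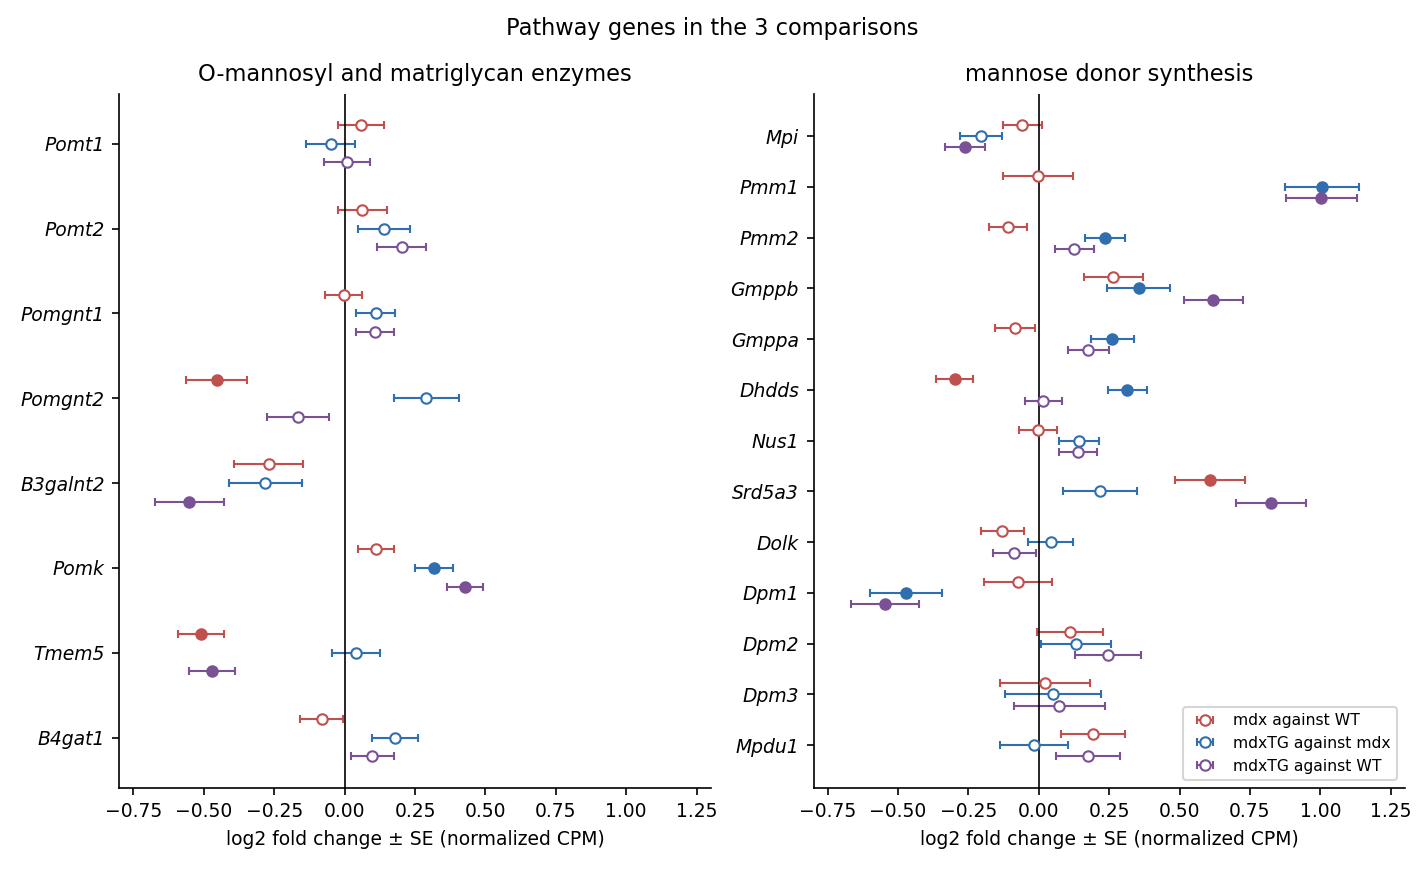
Log2 fold change ± SE (horizontal axes, normalized CPM) of 8 genes of O-mannosylation and matriglycan synthesis, left, and of 13 genes of mannose donor synthesis, right, in the 3 comparisons; filled circles have a limma adjusted p under 0.05. Pmm1 at 1.01 is the farthest to the right in mdxTG against mdx, Pomk and Gmppb are filled in both comparisons with mdxTG, and Tmem5 and Pomgnt2 are filled to the left in mdx against WT.

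Neighbouring glycosylation routes gave the following counts. Of all genes, 15.4% rose and 12.9% fell in mdxTG against mdx, and 18.5% rose and 16.1% fell in mdx against WT. Of 8 genes for sialic acid and other dystroglycan glycans, 4 were listed, and in mdxTG against mdx 2 rose, Nans by 0.79 ± 0.08 and Cmas by 0.49 ± 0.12, which make sialic acid and activate it. Of 13 listed genes that assemble the N-glycan precursor, 1 rose in mdxTG against mdx, Alg5 by 0.35 ± 0.08, and none fell. Of 12 subunits of the oligosaccharyltransferase, which transfers that precursor, 2 rose and 1 fell in mdxTG against mdx. Tusc3 rose by 0.71 ± 0.13 and Ddost by 0.38 ± 0.07, and Stt3b fell by 0.46 ± 0.06. In mdx against WT, 4 of these 12 rose, led by Tusc3 at 0.54 ± 0.12, Stt3a at 0.49 ± 0.12 and Ddost at 0.28 ± 0.07.
The 5 other protein O-mannosyltransferases gave no call in mdxTG against mdx. The genes of sialic acid, the N-glycan precursor and the oligosaccharyltransferase named here for mdxTG against mdx passed under all alternatives run for them.

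Dag1, the gene of the substrate, was at 258 ± 61.4 normalized CPM in WT, 302 ± 43.6 in mdx and 343 ± 64.9 in mdxTG, and overlapped between all groups. Its log2 fold change was 0.25 ± 0.18 in mdx against WT, 0.17 ± 0.19 in mdxTG against mdx and 0.43 ± 0.18 in mdxTG against WT (limma adjusted p = 0.0629). Of 8 listed genes for dystroglycan and its ligands, none passed in mdxTG against mdx, where 15.4% of all genes rose and 12.9% fell. In mdx against WT, where 16.1% of all genes fell, 2 of the 8 fell, including Egflam (pikachurin, a dystroglycan ligand) by 0.72 ± 0.12.

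Genes whose levels over the 13 libraries were most like each member were found among 12974 genes by the root-mean-square difference of log2 levels, each centred on its own mean. For Pomk they were Hace1 at 0.06, Nelfe at 0.06 and Maea at 0.07, against a median of 0.31 over all genes. For Gmppb they were Chst14 at 0.10, Plod1 at 0.11 and Shc1 at 0.11, against a median of 0.37. Pomgnt1 was nearest to Emc1, Tjap1 and Mgea5, B4gat1 to Smarcd1, Epdr1 and Pqlc2, Pomt1 to Kdm4c, Taok2 and March8, and Pomt2 to Fam168b, Sec63 and Rnf19a. None of these is a gene of the lists above. All were picked as the nearest genes, so a distance below the median was fixed in advance.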

How the data were processed

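RNA-seq of the tibialis anterior was measured in 13 libraries. TRIzol extraction and column purification gave the RNA, per the labels' protocols, and a kit that keeps strand was used for the libraries. The tools named, per the submitters' processing notes, are bcl2fastq 2.17, STAR and edgeR, with build mm10; neither counter, strand setting nor annotation is stated in the sources used here. The authors deposited mapped read counts per library, with the share of reads mapped as a fraction. The authors' sheet of expression gives a signal after scaling, which it calls CPM; every value was a whole multiple of 1 read's worth per library (100% within 0.001 reads), so reads were recovered from it, and plain CPM is these reads per M reads. The authors' deposited tables of comparisons hold log2 fold changes with p-values.

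Log2(normalized CPM + 0.5), a scale on which changes of low genes are understated, was tested with limma 3.58.1 (R 4.3.3, trended empirical Bayes) in a single fit of 13 libraries and 3 group means. Of 13846 genes, 13831 reached 0.5 normalized CPM in 4 libraries and were tested. P-values are two-sided and Benjamini-Hochberg adjusted across those genes. The Pomt1 to Pomt2 ratio was tested by exact permutation in scipy 1.17.1. Alternatives used other pseudocounts and filters, plain CPM, only the groups compared, a replicate block, edgeR 4.0.16, DESeq2 1.42.0 and each library left out; leaving out WT replicates 1 and 2 together was chosen after seeing the data. The pipeline was tested on simulated data.

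The labels number replicates in each genotype. Between mdx and WT, same-numbered libraries deviated together, with correlations over genes of 0.34, 0.45, 0.33 and 0.18. Differently numbered libraries of these groups ranged from -0.45 to 0.48, the highest being mdx replicate 4 with WT replicate 5. The numbers therefore do not single out a pairing, and no batch is stated. Between mdxTG and either other group the signs for same-numbered libraries were mixed. No replicates agreed within sampling noise.

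Members and gene lists were chosen with earlier results of these data known. The genes named are the 6 members, Sspn, Dmd and Dag1, up to 3 genes past the threshold per list and comparison (4 for the O-mannosyl list), and the 3 genes most like each member; exceptions are stated. Some genes of the lists are not reported here, and the counts for the O-mannosyl list are over its 8 reported genes. Current symbols were matched to older ones in the sheet through RefSeq synonyms.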

Additional observations from a re-analysis of the deposited data

How the results depend on the processing

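The number of the 6 genes past the threshold was 5, 4 and 6 in plain CPM, against 0, 2 and 2 on the authors' scale, for mdx against WT, for mdxTG against mdx and for mdxTG against WT; of the 13831 genes tested, 5889, 4483 and 9097 then changed, against 4782, 3922 and 7468. Leaving out 1 library gave 0 to 1 genes in mdx against WT, 1 to 2 in mdxTG against mdx and 2 to 3 in mdxTG against WT. Of all genes tested, 3780 to 5257, 3121 to 3430 and 6608 to 7819 changed in those fits, in the same order of comparisons. Without WT replicate 3 the gene in mdx against WT was Gmppb. Small differences changed sign. Pomgnt1 in mdx against WT was 0.23 in plain CPM, -0.0440 to 0.0454 without single libraries and 0.0195 without WT replicates 1 and 2. B4gat1 in mdx against WT was 0.15 in plain CPM. Pomt1 in mdxTG against mdx was 0.0888 in plain CPM. Pomt1 in mdxTG against WT was -0.0115 with DESeq2, -0.0348 to 0.0498 without single libraries and -0.0481 without WT replicates 1 and 2. Pomt2 in mdx against WT was -0.0503 without those 2 libraries. The log2 ratio of Pomt1 to Pomt2 differed by -0.0672 to 0.0338 in mdx against WT, -0.24 to -0.15 in mdxTG against mdx and -0.26 to -0.15 in mdxTG against WT when single libraries were left out. The cause of these shifts was not tested, other than the scaling in plain CPM.

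With the replicate number as a block, 4909, 4110 and 7556 genes changed, against 4782, 3922 and 7468 without it. The block changed 1 call among the 6 genes: Pomt2 passed in mdxTG against WT at 0.27 (limma adjusted p = 0.0162), the same value as without WT replicate 5, which has no partner of its number. With the block and only the groups compared it did not pass (limma adjusted p = 0.0694). That fit called 5307, 4499 and 6242 genes.

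Gmppb, with the fewest reads, is the gene whose precision depth limits most.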
